A study of Mus musculus with 4 samples.

Results

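The genes described here are 8 enzymes that clear aldehydes, alcohols and ketones: the aldehyde dehydrogenases Aldh1a1, Aldh2 and Aldh3a1, the alcohol dehydrogenases Adh1 and Adh7, and the carbonyl reductases Cbr1, Cbr2 and Cbr3. They were chosen by name, as the probe sets whose platform gene symbol is 1 of these 8. That gave 12 probe sets of 12488 on the array, and 8 of 8251 named genes. A probe set is a group of short probes read together for 1 transcript. The inbred C57BL/6J mice gave total RNA from entire lungs, pooled into 4 samples of 1 array each. One pool was unexposed (its title gives 0 h), and the others were collected 6, 18 and 90 h after an aerosol of 10 mg/m3 hexamethylene diisocyanate (HDI), a reactive monomer of polyurethane coatings. The sources used here do not give age, sex, mice per pool or the length of exposure. With 1 pool and 1 array per group no test was possible, so each difference is a description of these arrays, and their number limits the precision.

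Aldehydes form in tissue from lipid peroxidation, from alcohols and vitamin A, and from inhaled chemicals. Aldehyde dehydrogenases oxidise them to acids, alcohol dehydrogenases interconvert alcohols and aldehydes, and carbonyl reductases reduce aldehydes, ketones and quinones to alcohols. In lung these enzymes are best known in the airway lining, where club cells carry much of the capacity to handle foreign chemicals.

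The arrays were close in brightness, with median deposited intensities of 97.7 to 108 units and scale factors of 0.970 to 1.07. Scaled values are used throughout, and those under 77.7 units, the 40th percentile of all scaled values, were set to that floor before log2 was taken. Markers of lung were bright in every pool: Sftpc, a surfactant protein gene of type II cells, read 9136 to 9874 units, Scgb1a1, the main club cell secretoglobin, 8006 to 10634, and Ager, a type I cell gene, 4040 to 4447. The probe set of Sftpd, another surfactant protein gene, lay under the floor in all 4 pools. Where a gene had 2 usable probe sets, their disagreement gave a robust SD of 0.28, 0.28 and 0.25 log2 units for 1 probe set at 6, 18 and 90 h against unexposed. That yardstick holds no variation between mice or pools. All 3 comparisons with unexposed lungs share that array.

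With values floored, none of the 8 genes was 2-fold or more away from unexposed lungs at any of the 3 times. Aldh3a1 came nearest, 1.97-fold higher at 18 h, followed by Adh1, 1.79-fold lower at 6 h, and Cbr1, 1.68-fold lower at 6 h. Among all compared genes, 3.67% were at least 2-fold away in either direction at 6 h, 2.53% at 18 h and 1.65% at 90 h, so a count of 0 among 8 is near the background. At a looser 1.5-fold, 2 members were lower and 0 higher at 6 h, against 6.06% and 7.15% of all genes. At 18 h 1 member was higher and 0 lower, against 6.79% and 6.13%, and at 90 h 0 members passed in either direction, against 3.40% and 4.88%. Aldh3a1 at 6 h, 1.49-fold higher, lay just inside that threshold. Cbr2 was under the floor in all 3 exposed pools, so its fold was a bound, at least 1.37-fold lower. With this floor it could not reach 1.5-fold or 2-fold, whatever its true level.

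The 8 genes did not move as a block. At 6 h 5 were above and 3 below unexposed lungs, with a median log2 difference of 0.12 against -0.04 over all compared genes. At 18 h 1 was above and 7 below, with a median of -0.18 against -0.01. Of those 7, Aldh2 and Adh7 stood above unexposed lungs when the deposited intensities were left unscaled, a choice that moved the median of all genes to 0.12. At 90 h 3 were above and 5 below, with a median of -0.24 against 0.03.

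**Figure D1:**
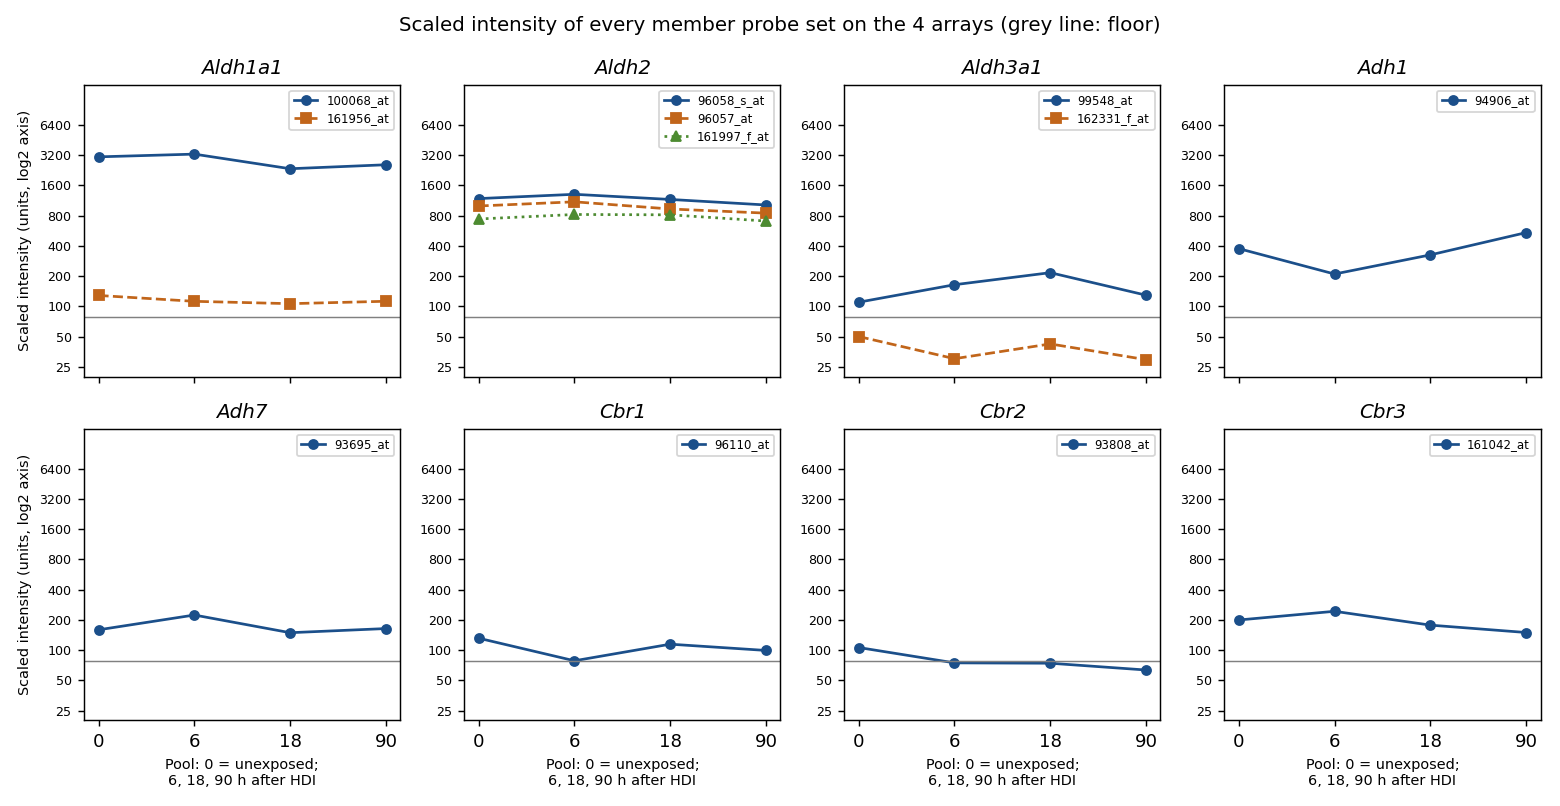
Scaled intensity (units, log2 axis) of all 12 probe sets of the 8 genes in the unexposed pool and 6, 18 and 90 h after HDI, 1 point per array. Aldh3a1 peaked at 18 h by its brighter probe set, Adh1 was lowest at 6 h and highest at 90 h, and the Cbr2 probe set lay under the grey floor line of 77.7 units in all 3 exposed pools.

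Aldh3a1, a dehydrogenase that oxidises medium-chain and aromatic aldehydes and is abundant in cornea and stomach, gave the member difference furthest above unexposed lungs. Its brighter probe set read 109.9 units in unexposed lungs, 164 at 6 h, 216 at 18 h and 129 at 90 h. All 3 exposed pools thus lay above the unexposed one, with the 18 h pool furthest and the 90 h pool nearest to it. The log2 differences were 0.58, 0.98 and 0.23, and the difference at 18 h was above those of 98.3% of all 6040 compared genes. It was 3.45 times the yardstick for 1 probe set. From 18 to 90 h the reading was 1.68-fold lower. The other Aldh3a1 probe set, with a suffix that can mark cross-hybridisation, stayed under the floor in all 4 pools, at 29.4 to 50.04 units, and gives no second reading.

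The level of Aldh3a1 in unexposed lungs was only 1.41 times the floor, and how dim values are treated bears on its fold. With the deposited intensities unscaled it was 2.17-fold higher at 18 h, with medians equalised 2.002-fold, with a pseudocount in place of the floor 1.57-fold, and with a higher floor, at the 60th percentile, at least 1.57-fold. Genes of squamous and stomach-type lining went both ways in that pool. Of 10 such genes on the array 7 were compared at 18 h, 4 above and 3 below unexposed lungs, with a median log2 difference of 0.30 and 1 past 2-fold. Sprr1a, a cornified envelope protein gene, read 175, 159, 473 and 56.4 units in the 4 pools in order of time, and Krt4, a keratin of stratified lining, 448, 340.3, 735 and 475. The Krt4 probe set carries a suffix that marks possible cross-hybridisation. Krt5, a keratin of basal cells, was under the floor at 18 h and at least 1.83-fold lower. The summed level of the 10 genes was 1546 to 2132 units, highest at 18 h, with Krt14 and Sprr3 under the floor throughout, and the part of these cells in the Aldh3a1 reading was not tested. In bulk tissue more cells of a type and more RNA per cell cannot be told apart.

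Aldh3a1 is also known as a target of the aryl hydrocarbon receptor, which senses planar aromatic compounds. Of 7 genes of that response on the array, 6 were compared at 18 h (median log2 difference -0.32). With values floored none was past 2-fold, against 2.53% of all compared genes, but the value of Cyp1a1 was only a bound. Cyp1a1, the classical target, read 139, 138, 34.5 and 160.1 units, so at 18 h it was under the floor and at least 1.79-fold lower than in unexposed lungs. Cyp1a2 had a log2 difference of -0.62 and the receptor gene Ahr one of -0.56 at 18 h. Ahrr, its repressor, had one of 0.33. At 6 h 1 of 6 was past 2-fold: Tiparp, a poly-ADP-ribose polymerase gene, read 72.6 units in unexposed lungs and 196 at 6 h, at least 2.52-fold higher. Aldh3a2, the protein-coding neighbour of Aldh3a1 on chromosome 11 and an oxidiser of fatty aldehydes, read 877 units in unexposed lungs and 745, 735 and 757 in the exposed pools. It lay below the unexposed pool at all 3 times while Aldh3a1 lay above it.

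Aldh1a1, which oxidises retinaldehyde to retinoic acid as well as aldehydes from lipids, was bright and lowest at 18 h. Its brighter probe set read 3077, 3276, 2343 and 2567 units in the unexposed, 6, 18 and 90 h pools, and the other 128, 112, 106 and 112. By both probe sets the 18 h pool was the lowest and the 90 h pool lay below the unexposed one. The log2 differences were -0.39 and -0.27 at 18 h and -0.26 and -0.19 at 90 h, 0.77 to 1.39 times the yardstick. At 6 h the probe sets gave 0.09 and -0.19, of opposite sign. Aldh1a7, its protein-coding neighbour on chromosome 19 and a close relative in sequence, read 417, 363, 511 and 452 units by its only probe set, highest where Aldh1a1 was lowest. How far probes of 1 of these relatives also bind transcripts of the other was not tested.

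The summed level of club cell genes was below that of unexposed lungs in all 3 exposed pools, while the brighter Aldh1a1 probe set was lower at 18 h and 90 h only. All 7 club cell markers on the array were above the floor in every pool, and their summed level was 18541 units in unexposed lungs, 15911 at 6 h, 14201 at 18 h and 14494 at 90 h. At 6 h 5 of 7 were below unexposed lungs, with a median log2 difference of -0.26. Aldh1a1 gave 0.09 at that time by its brighter probe set and -0.19 by the other. At 18 h 5 of 7 were below, with a median of -0.35, and at 90 h 6 of 7, with a median of -0.21. At 18 h Scgb1a1 had a log2 difference of -0.35 and Cyp2f2, a club cell P450, one of -0.64. Cckar, a cholecystokinin receptor gene and the only one of the 7 past 2-fold at either time, was 2.47-fold lower at 6 h and 2.24-fold lower at 18 h. Gsta3, a glutathione transferase gene, lay the other way, with log2 differences of 0.64 at 6 h and 0.35 at 18 h. The part of club cells in the Aldh1a1 reading was not tested.

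Aldh2, the mitochondrial enzyme that clears acetaldehyde and aldehydes of lipid peroxidation, was the most even member. Its 3 probe sets read 740.4 to 1182 units in unexposed lungs, and no pool differed from another by more than 1.28-fold in the representative one. That probe set read 1182, 1304, 1159 and 1021 units. At 6 h all 3 probe sets lay above the unexposed pool by nearly the same step, with log2 differences of 0.14, 0.14 and 0.15. At 90 h all 3 lay below it, with log2 differences of -0.21, -0.24 and -0.07. At 18 h they disagreed in sign, at -0.03, -0.10 and 0.14. Each of these 9 differences was under the yardstick. The representative probe set and 1 other carry a suffix that marks possible cross-hybridisation, and the unmarked one ran the same way.

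Adh1 and Adh7 are neighbours among the protein-coding genes of chromosome 3, and at 6 h they stood on opposite sides of unexposed lungs. Adh1 is the main ethanol and retinol dehydrogenase of liver, and Adh7 is a retinol-active form known from the linings of stomach and airway. The sequences around their start sites are shown because the pair diverged. They come from RefSeq on build GRCm38.p6, run from 250 bases before to 50 after the listed start, and are on the plus strand, Adh1 at chr3:138277335-138277634 and Adh7 at chr3:138217523-138217822. Capitals mark GCGTG, the core bound by the aryl hydrocarbon receptor, on either strand.
Adh1: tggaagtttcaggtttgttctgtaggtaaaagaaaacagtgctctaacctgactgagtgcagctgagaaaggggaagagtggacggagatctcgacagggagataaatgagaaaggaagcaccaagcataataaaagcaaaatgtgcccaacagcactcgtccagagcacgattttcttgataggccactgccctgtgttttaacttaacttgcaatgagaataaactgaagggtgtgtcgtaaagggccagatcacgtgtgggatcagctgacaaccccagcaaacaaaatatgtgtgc
Adh7: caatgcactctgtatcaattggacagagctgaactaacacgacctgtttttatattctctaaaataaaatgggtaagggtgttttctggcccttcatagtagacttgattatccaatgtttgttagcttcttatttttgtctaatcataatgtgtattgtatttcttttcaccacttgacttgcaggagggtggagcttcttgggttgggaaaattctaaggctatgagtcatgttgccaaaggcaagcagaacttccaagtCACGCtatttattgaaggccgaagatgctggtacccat
Adh7 held 1 match of GCGTG on the minus strand, 13 to 17 bases after the start counted from 1, and Adh1 held none. Over 32851 promoters of that length, 32.4% held GCGTG. The antioxidant response core TGACNNNGC, searched on both strands, was in neither, against 12.4% of all promoters. A match is a description of letters and no match says nothing of a factor.

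Adh1 had the widest span of the 8 genes. Its only probe set read 375 units in unexposed lungs, 209.6 at 6 h, 325 at 18 h and 542 at 90 h. The 6 h pool was lowest and the 90 h pool highest, 2.59-fold apart, while the 18 h pool lay near the unexposed one. It was the only member whose highest and lowest pools differed by 2-fold or more, as did those of 7.78% of 6286 genes. The log2 differences from unexposed lungs were -0.84, -0.21 and 0.53, against yardsticks of 0.28, 0.28 and 0.25. At 6 h 142 of 6044 compared genes lay further below, and at 90 h 286 of 6062 lay further above. From 18 to 90 h Adh1 was 1.67-fold higher.

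Adh7 read 159 units in unexposed lungs, 224 at 6 h, 149 at 18 h and 164 at 90 h. Only the 6 h pool stood apart, 1.40-fold higher than unexposed lungs (log2 difference 0.49), and the other 3 pools lay between 149 and 164 units. From 6 to 18 h it was 1.5-fold lower while Adh1 was 1.55-fold higher. Those 2 members reached 1.5-fold between these times, against 4.77% of all compared genes lower and 5.34% higher. Adh7 lay on that line, and was 1.47-fold lower with no scaling or with median scaling, 1.49-fold with quantile scaling and 1.33-fold with a pseudocount. None of the members passed 2-fold between these times, against 2.35% of all compared genes. Adh4 and Adh5, the other alcohol dehydrogenases on the array, were steadier. Adh5, which oxidises the glutathione adduct of formaldehyde, read 221, 208, 274 and 268 units. Its probe set carries a suffix that marks possible cross-hybridisation. Adh4 read 105, 104, 77.4 and 79.2 units, close to the floor at 90 h. At 18 h it was under the floor and at least 1.35-fold lower than in unexposed lungs.

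**Figure D2:**
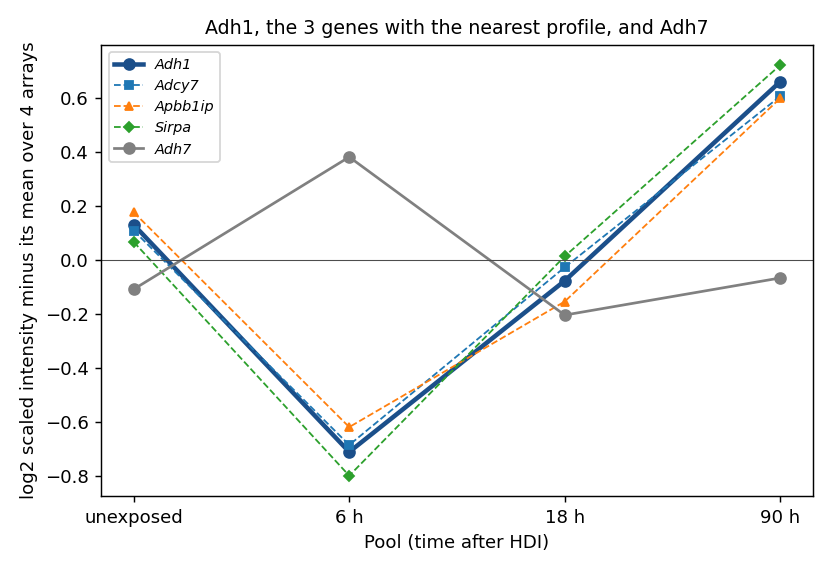
Log2 scaled intensity of each gene minus its own mean over the 4 arrays, for Adh1, the 3 genes with the nearest profile, and Adh7, by pool. Adh1 was lowest at 6 h and highest at 90 h, with 542 units against 209.6, and Adh7 was highest at 6 h, with 224 units.

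The profiles nearest to that of Adh1, by Euclidean distance between mean-centred log2 values over the 4 arrays, were those of Adcy7, Apbb1ip and Sirpa, among 5083 genes above the floor in every pool. Their distances were 0.081, 0.14 and 0.15 log2 units. Sirpa read 162, 89.1, 156 and 255 units by the brightest of its 3 probe sets. A pool order of lowest at 6 h and highest at 90 h was held by 687 of the 5083 genes, 13.5%.

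Some markers of macrophages, fibroblasts, endothelium and neutrophils shared the order seen in Adh1. Of 6 macrophage and monocyte genes above the floor in every pool, 3 had it, namely Mpeg1, Csf1r and Cd68. Of 11 such fibroblast genes 5 had it, among them Col1a1 and Col3a1. Of 12 such endothelial genes 1 had it, Kdr, and of 6 neutrophil genes 1, S100a8. None of 7 club cell, 5 type II, 5 type I, 7 smooth muscle or 5 B cell genes did. Markers without that order included Lgals3 and Mrc1, with log2 differences of 0.45 and 0.22 at 6 h, and Pdgfra, with 0.46. At 6 h 3 of 7 macrophage and monocyte genes compared lay above unexposed lungs and 4 below, and at 90 h all 8 compared lay above. Of 11 fibroblast genes 2 lay above and 9 below at 6 h, and 8 above and 3 below at 90 h. Mpeg1 read 434, 211 and 796 units in the unexposed, 6 h and 90 h pools, and Col3a1, a fibrillar collagen gene, 1259.9, 743 and 1501. The summed level of the 10 macrophage and monocyte genes on the array was 1922, 1740 and 3527 units in those pools, with Marco and Msr1 under the floor in all 4, and that of the 12 fibroblast genes 17982, 15723 and 18002. Adipocyte markers ran the other way at 6 h, with a summed level of 2375 units against 1248 in unexposed lungs. Liver genes were checked because Adh1 is abundant in liver. They summed to 2410.1 units in unexposed lungs, 2159 at 6 h, 1712 at 18 h and 2196 at 90 h. Apoa1 alone read 1322, 980, 647 and 1109 units in these pools. At 6 h 3 of the 6 liver genes compared lay above unexposed lungs and 3 below, with a median log2 difference of 0.01. Apob, Fgb and Arg1 were under the floor in all 4 pools. The part of any of these cells in the Adh1 reading was not tested.

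The carbonyl reductases Cbr1 and Cbr3 are close relatives and protein-coding neighbours on chromosome 16, and they too lay on opposite sides of unexposed lungs at 6 h. Both are cytosolic and use NADPH. Cbr1 reduces quinones, prostaglandins and aldehydes, and Cbr3 has a narrower range of substrates. Their start regions are shown for the same reason as those above, again from RefSeq on GRCm38.p6 and the plus strand, Cbr1 at chr16:93607587-93607886 and Cbr3 at chr16:93682969-93683268, with GCGTG on either strand in capitals.
Cbr1: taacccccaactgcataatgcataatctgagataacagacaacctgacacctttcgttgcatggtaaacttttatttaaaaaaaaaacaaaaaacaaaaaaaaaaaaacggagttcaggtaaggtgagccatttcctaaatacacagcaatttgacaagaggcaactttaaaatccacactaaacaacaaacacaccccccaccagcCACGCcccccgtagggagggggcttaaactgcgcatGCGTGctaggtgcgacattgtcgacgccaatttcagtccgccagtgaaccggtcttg
Cbr3: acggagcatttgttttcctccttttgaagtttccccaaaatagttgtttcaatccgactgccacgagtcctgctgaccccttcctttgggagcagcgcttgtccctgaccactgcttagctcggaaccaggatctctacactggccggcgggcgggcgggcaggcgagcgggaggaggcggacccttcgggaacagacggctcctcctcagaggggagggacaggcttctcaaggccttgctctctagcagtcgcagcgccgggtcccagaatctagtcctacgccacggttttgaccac
Cbr1 held GCGTG at 2 places, from 43 to 39 bases before the start on the minus strand and from 7 to 3 bases before it on the plus strand. Cbr3 held none, and neither held TGACNNNGC. The Cbr3 stretch was richer in G and C, at 60% against 44% for Cbr1. Promoters of Cbr2 and Aldh1a1, with 2 listed starts for Aldh1a1, held neither motif.

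Cbr1 was low at 6 h. It read 132 units in unexposed lungs, 78.4 at 6 h, 115 at 18 h and 99.3 at 90 h, so all 3 exposed pools lay below the unexposed one and the 6 h pool lay almost on the floor. The log2 differences were -0.75, -0.20 and -0.41. At 6 h 191 of 6044 compared genes lay further below. With a pseudocount in place of the floor the 6 h difference was -0.42, and with a floor at the 60th percentile Cbr1 was under it in every pool and gave no value.

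Cbr3 read 199.7 units in unexposed lungs, 244 at 6 h, 177 at 18 h and 149.9 at 90 h. It was highest at 6 h and lowest at 90 h, 1.63-fold apart, and the log2 differences from unexposed lungs were 0.29, -0.17 and -0.41. The Cbr3 difference at 6 h was only 1.01 times the yardstick, and that of Cbr1 2.63 times. At 90 h Cbr1 and Cbr3 were lower by nearly the same amount, 1.32-fold and 1.33-fold. Cbr2, a mitochondrial carbonyl reductase known as abundant in mouse lung, read dim here. Its only probe set gave 106 units in unexposed lungs and 74.7, 74.1 and 63.4 in the exposed pools, all 3 under the floor, so Cbr2 was at least 1.37-fold lower at each time. Values under the floor have no order. Those bounds lie within the central 95% of all compared genes, but a bound set by the floor does not show how low Cbr2 itself was. With a lower floor, at the 25th percentile, the log2 differences of Cbr2 were -0.51, -0.52 and -0.74.

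**Figure D3:**
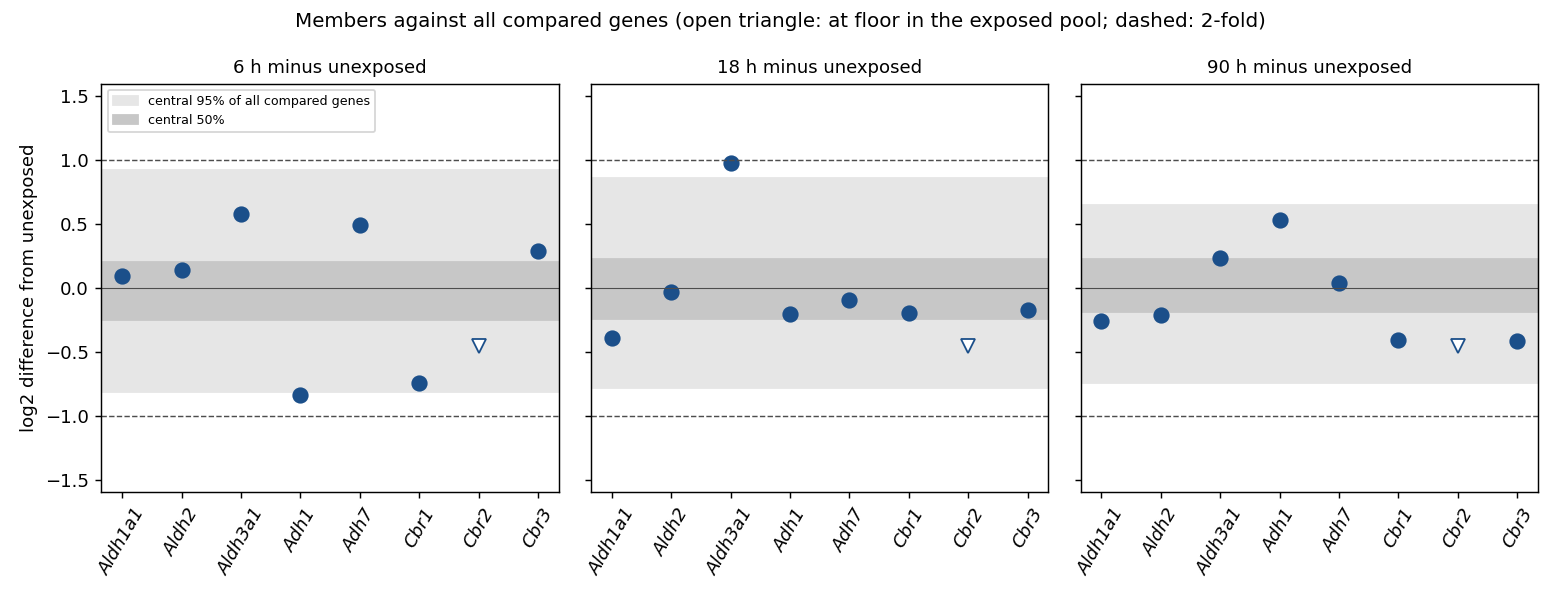
Log2 difference of each member from unexposed lungs at 6, 18 and 90 h (points; open triangles mark Cbr2, at the floor in the exposed pool), over the central 95% and 50% of all compared genes (grey bands), with 2-fold dashed. Adh1 at 6 h, at -0.84, and Aldh3a1 at 18 h, at 0.98, lie outside the 95% band. All other members lie inside it, Cbr2 only as a bound set by the floor.

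Related enzymes gave few differences past 2-fold, in lists of few genes. Of all compared genes, 3.67% were past it at 6 h, 2.53% at 18 h and 1.65% at 90 h. Of 17 other aldehyde dehydrogenases 7 were on the array and 3, 4 and 3 were compared at 6, 18 and 90 h, none past 2-fold. Their medians were -0.20, 0.39 and 0.12. Aldh7a1, which acts on lysine-derived and other aldehydes, had log2 differences of 0.06, 0.48 and 0.43, by a probe set with a suffix that marks possible cross-hybridisation. Aldh1a2, Aldh1a3 and Aldh18a1 were under the floor in all pools. The 4 aldo-keto reductases compared, of 7 on the array, were all below unexposed lungs at 6 h (median -0.40), with Akr1b8 at -0.58, Akr7a5 at -0.44 and Akr1a1 at -0.37. None was past 2-fold. Akr1b8, an aldose reductase relative that reduces lipid aldehydes, read 256, 171, 326 and 196 units, 1.91-fold higher at 18 h than at 6 h. Like Adh1 and Cbr1 it was lowest in the 6 h pool, as were 1492 of the 5083 genes above the floor in every pool.

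Among 22 other short-chain dehydrogenases, the family of the carbonyl reductases, 12 were compared at 6 h and 13 at 18 h and 90 h. In each case 1 was past 2-fold higher and none lower, with medians of 0.01, 0.06 and 0.19. The gene past 2-fold was Dhrs1 each time, which is listed at 0 in unexposed lungs and read 242, 293 and 263 units in the exposed pools, so no fold is given. Hpgd, which inactivates prostaglandins, read 863, 1034, 555 and 593 units, 1.86-fold lower at 18 h than at 6 h. Like the brighter of the 2 Aldh1a1 probe sets, it was highest at 6 h and lowest at 18 h. Hsd17b12, an enzyme of fatty acid elongation, had a log2 difference of 0.79 at 18 h. Other enzymes that handle reactive carbonyls and quinones had medians of 0.32, 0.11 and -0.24 in 8, 7 and 7 genes, none past 2-fold from unexposed lungs.

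**Figure D4:**
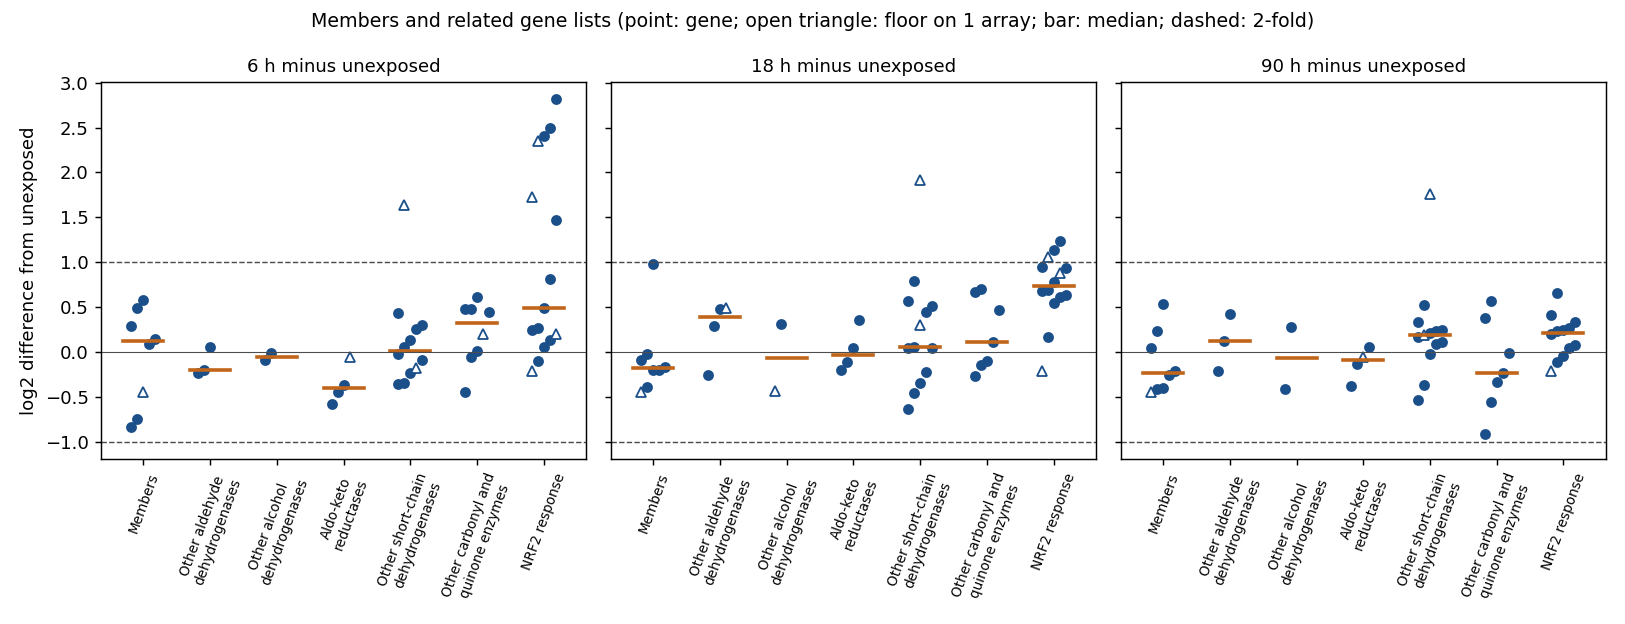
Log2 difference from unexposed lungs at 6, 18 and 90 h of the 8 members, of related enzyme lists and of NRF2 response genes; points are genes, open triangles genes at the floor on 1 of the 2 arrays, bars list medians, dashed lines 2-fold. The NRF2 list has 6 of 15 genes past 2-fold at 6 h, and none of the 8 members is past that line at any time.

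Among these carbonyl and quinone enzymes 2, Gsta4 and Xdh, were past 2-fold lower at 90 h than at 18 h. Gsta4, the glutathione transferase specialised for 4-hydroxynonenal, read 141, 197, 230.2 and 96.1 units, and was 2.40-fold lower at 90 h than at 18 h. Xdh, xanthine oxidoreductase, read 373, 519, 403 and 198, and was 2.03-fold lower over that interval. Ptgr1, which reduces the double bond of unsaturated aldehydes, had log2 differences of 0.61, 0.66 and 0.37. Between 18 and 90 h none of the members passed 2-fold, against 1.86% of all compared genes, and 2 passed 1.5-fold. These were Adh1, higher (3.68% of all genes), and Aldh3a1, lower (3.97%).

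Genes of the NRF2 antioxidant response, to which carbonyl and aldehyde reductases are often assigned, are set beside the members here. Of 15 compared at 6 h, 6 were past 2-fold higher and none lower (median 0.49), and at 18 h 3 of 14 were (median 0.73). Gclc, for glutathione synthesis, read 213 units in unexposed lungs and 1496, 501 and 255 after exposure. Cbr1, Cbr3 and Aldh3a1 had log2 differences of -0.75, 0.29 and 0.58 at 6 h, beside the list median of 0.49. Gclc, the highest of the list at that time, had 2.81. At 18 h the 3 members had -0.20, -0.17 and 0.98, beside the list median of 0.73. Nqo1, a quinone reductase, was above the floor in the 6 h pool only, at 89.1 units, by a probe set with a suffix that marks possible cross-hybridisation. At 90 h none of the 12 compared was past 2-fold (median 0.21). The difference between the lists was not tested.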

How the data were processed

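The deposited intensities, 1 linear value per probe set and array with no value below 0, were used as the authors gave them. Which software, background correction and scaling lie behind them is not given in the sources used here. Probe sets were named from the platform annotation through gene identifiers: 10833 had 1 symbol, 396 several and 1193 none listed, and 66 were controls. Arrays were scaled to a common mean after trimming 2% at each end, floored at the 40th percentile, and logged. The probe set of highest mean stood for its gene, which was compared where at least 1 of the 2 arrays was above the floor. A gene at the floor on 1 array gives a bound. Folds past 2 were counted, with no test. The yardstick is the robust SD of the disagreement between 2 unmarked probe sets of a gene, divided by the square root of their number. Members and lists were chosen with earlier results of these data known. All 8 members, and up to 4 genes per list by size of difference, are named, along with the 3 nearest profiles of each member that spans at least 2-fold. Other genes of the lists were named after their values were seen. Promoters were matched by symbol for 6 of 8 members, all but Aldh2 and Aldh3a1. Alternatives were no scaling, median and quantile scaling, floors at the 25th and 60th percentile, a pseudocount, the mean over probe sets, unmarked probe sets only, genes above the floor on both arrays, and thresholds of 1.5-fold and 3-fold. The code (Python 3.11.15, pandas 2.3.3) was tested on simulated data.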

Additional observations from a re-analysis of the deposited data

How the results depend on the processing

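Of 330 values of single members under the 9 alternatives to scaling, floor and probe sets, 323 moved by less than the yardstick and 7 by more, and 2 crossed 2-fold. Both were Aldh3a1 at 18 h, which made 1 member past 2-fold with no scaling (2.17-fold) and 1 with median scaling (2.002-fold). Some of the 323 could not move. The mean over probe sets leaves the 5 members with 1 probe set as they were. Requiring both arrays above the floor changes no value that it keeps. At 1.5-fold, in the setting reported, 2 members passed at 6 h, 1 at 18 h, 2 from 6 to 18 h and 2 from 18 to 90 h, and 12 values changed side under these alternatives. Adh7 from 6 to 18 h fell short with no, median and quantile scaling and with a pseudocount, which also left Adh1 from 6 to 18 h (1.40-fold), Aldh3a1 from 18 to 90 h (1.42) and Cbr1 at 6 h (1.34) short. With no scaling Adh1 at 90 h (1.59-fold), Adh7 at 6 h (1.52) and Aldh3a1 at 6 h (1.61; 1.501 with quantile scaling) passed, as did Cbr2 at 90 h with the lower floor (1.67). The 7 values that moved by more than the yardstick concerned Aldh3a1, Cbr1 and Cbr2, all near the floor, and 6 of them moved towards 0. The sign turned in 4 values, Aldh2 at 18 h (0.12 unscaled, 0.00329 with probe sets averaged), Adh7 at 18 h (0.049 unscaled) and Aldh1a1 at 6 h (-0.052 with probe sets averaged). Of 1079 list medians 1052 moved by less than the yardstick. Genes past 2-fold ranged from 88 to 173 higher and 42 to 130 lower at 6 h, 60 to 153 and 21 to 85 at 18 h, and 22 to 91 and 25 to 87 at 90 h, against 131 and 91, 96 and 57, and 44 and 56. No paired analysis was possible because each group has 1 array. Dim probe sets limit what can be read of Cbr1, Cbr2 and Aldh3a1.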

Other observations

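Genes of vitamin A handling, the pathway that Aldh1a1, Adh1 and Adh7 serve, were also read. Of 13 on the array 8 were compared at 6 h, 18 h and 90 h, with medians of -0.10, -0.05 and -0.04. None was past 2-fold, against 3.67%, 2.53% and 1.65% of all compared genes, so that count is near the background. Rdh5, a retinol dehydrogenase, read 116 units in unexposed lungs and 80.8, 75.4 and 72.4 after exposure. Dhrs3, which reduces retinaldehyde back to retinol, had a log2 difference of -0.35 at 6 h and -0.46 at 18 h. Stra6, a retinol transporter gene, read 189, 215, 300.1 and 137 units, and was 2.19-fold lower at 90 h than at 18 h, the only gene of the list past 2-fold between those times. Stra6, like Aldh3a1, Gsta4 and Sprr1a, was highest in the 18 h pool. These genes were set side by side after their values were seen. Other listed genes, such as Txn1, Taldo1 and Krt4, were also highest there, and the share of all genes highest in that pool was not counted.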
